A study of Mus musculus with 6 samples.

Results

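The 50 genes described here carry cells through division. They were taken by gene symbol, and all 50 are among the 22800 genes of the table, in which 10405 genes reached the level for testing, 49 of these 50 included. They were divided by role into 25 genes of mitosis, 15 of S phase, 7 of entry from G1 and 3 inhibitors of cyclin-dependent kinases (CDKs). RNA came from cells of bronchoalveolar lavage fluid, the wash of the airways and alveoli, of mice given 20 µg of sulfatide by injection into the peritoneum (3 libraries, replicates 1, 2 and 3) or given vehicle (3 libraries, replicates 2, 3 and 4). Sulfatide is a sulfated glycolipid that CD1d presents to type II natural killer T cells, and the series title names lung ischemia and reperfusion as the setting. The labels give neither strain, genotype, age nor sex, and do not state whether these mice underwent that injury. They also leave unsaid whether each library is a separate animal, so the spread behind each p-value may be technical. Values below are in replicate order within each group.

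A resting cell leaves G1 when D-type cyclins, with the kinases Cdk4 and Cdk6, inactivate the retinoblastoma protein and free E2F factors, which switch on the genes of DNA replication. The MCM helicase is loaded on origins with Cdc6 and Cdt1, DNA is copied with nucleotides made by ribonucleotide reductase, thymidylate synthase and thymidine kinase, and a later wave of genes, bound by the MuvB complex through promoter elements called CHR and by NF-Y at CCAAT boxes, builds the spindle and drives chromosome separation and cytokinesis. The inhibitors p21, p27 and p18 hold the kinases back. Macrophages of the lung can renew themselves by division in place, and RNA of these genes in a bulk sample comes from whatever cells were cycling. In bulk RNA, fewer cycling cells cannot be told apart from less of such RNA in each cell.

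The promoter letters of the 2 large groups differed. RefSeq promoter windows (build GRCm38.p6, from 250 bases before to 50 bases after a start site) were available for 40 of the 50 genes, that is, for all but Tpx2, Gins2, Mcm4, Aurkb, Ccnd1, Ccna2, Ccnd2, Ccne2, Stmn1 and Kif20a. Each window was searched on both strands for CHR letters (TTTGAA or TTCGAA), for CCAAT, and for E2F letters (TTCCCGC or TTCGCGC or TTGCCGC or TTGGCGC), and matches of different motifs may overlap. A gene with more than 1 window counted if any window matched. CHR letters stood in 16 of 20 mitosis genes (80.0%) and in 2 of 13 S phase genes (15.4%), against 21.7% of all 27025 genes with a window and 17.0% of the 8460 tested genes with one. E2F letters stood in 3 of 20 mitosis genes (15.0%) and in 9 of 13 S phase genes (69.2%), against 10.9% of all genes and 19.6% of tested genes. CCAAT was common in both groups (17 of 20 and 9 of 13 genes) and in all genes (41.1%). Positions are counted from the start site, negative before it, at the first base of a match, and CHR letters of mitosis genes lay at a median of -18. CHR letters were absent from the windows of Birc5, Cenpe, Ccnb1 and Nusap1. Of these Birc5, the mitosis gene with the largest log2 fold change, and Cenpe rose, and Ccnb1 and Nusap1 did not pass. The Birc5 and Nusap1 windows held no CCAAT or E2F letters either. A match of letters is a description and not a binding site. The windows of 6 genes are shown, with the matched letters in capitals: Cdc20, Bub1b and Kif23, mitosis genes that rose, Ube2c, a mitosis gene that did not pass the test, Rrm2, the S phase gene with the largest log2 fold change, and Mcm6, an S phase gene that did not pass it.
Cdc20 (chr4:118437294-118437593, minus strand): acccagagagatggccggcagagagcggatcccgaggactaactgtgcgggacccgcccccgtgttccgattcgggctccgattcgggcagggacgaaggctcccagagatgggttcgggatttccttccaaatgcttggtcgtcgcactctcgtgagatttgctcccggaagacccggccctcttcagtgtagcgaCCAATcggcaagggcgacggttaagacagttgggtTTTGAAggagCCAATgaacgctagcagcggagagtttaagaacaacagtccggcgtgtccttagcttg
Bub1b (chr2:118597961-118598260, plus strand): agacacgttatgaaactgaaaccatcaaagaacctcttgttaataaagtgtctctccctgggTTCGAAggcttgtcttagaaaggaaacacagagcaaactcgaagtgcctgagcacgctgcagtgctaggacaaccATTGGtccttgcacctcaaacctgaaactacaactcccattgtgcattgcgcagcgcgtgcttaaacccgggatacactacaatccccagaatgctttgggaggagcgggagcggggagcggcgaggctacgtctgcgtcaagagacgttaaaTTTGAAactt
Kif23 (chr9:61946750-61947049, minus strand): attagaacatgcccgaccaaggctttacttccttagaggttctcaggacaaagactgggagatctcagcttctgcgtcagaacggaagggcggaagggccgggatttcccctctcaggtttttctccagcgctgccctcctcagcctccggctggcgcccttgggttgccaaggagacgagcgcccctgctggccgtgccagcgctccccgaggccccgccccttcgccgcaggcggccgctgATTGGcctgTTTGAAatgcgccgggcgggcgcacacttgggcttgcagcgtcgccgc
Ube2c (chr2:164769679-164769978, plus strand): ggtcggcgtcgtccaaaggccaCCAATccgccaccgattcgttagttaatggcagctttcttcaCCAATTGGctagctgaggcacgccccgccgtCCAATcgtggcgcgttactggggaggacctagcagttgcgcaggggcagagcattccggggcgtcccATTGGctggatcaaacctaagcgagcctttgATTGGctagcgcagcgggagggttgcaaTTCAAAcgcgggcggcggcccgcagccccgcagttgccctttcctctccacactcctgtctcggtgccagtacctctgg
Rrm2 (chr12:24708004-24708303, plus strand): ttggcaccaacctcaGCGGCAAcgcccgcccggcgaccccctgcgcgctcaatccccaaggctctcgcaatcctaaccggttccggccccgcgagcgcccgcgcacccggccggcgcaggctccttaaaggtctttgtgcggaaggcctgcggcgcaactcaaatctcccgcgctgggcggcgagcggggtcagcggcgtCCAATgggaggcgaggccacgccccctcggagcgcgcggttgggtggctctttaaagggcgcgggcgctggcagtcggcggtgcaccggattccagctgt
Mcm6 (chr1:128359656-128359955, minus strand): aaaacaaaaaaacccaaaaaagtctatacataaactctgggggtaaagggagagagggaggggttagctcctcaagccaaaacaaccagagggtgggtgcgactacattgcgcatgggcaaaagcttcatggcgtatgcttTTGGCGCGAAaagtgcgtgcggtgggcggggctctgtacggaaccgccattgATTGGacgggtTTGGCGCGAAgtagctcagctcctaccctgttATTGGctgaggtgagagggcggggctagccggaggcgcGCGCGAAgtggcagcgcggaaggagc
In the Cdc20 window the CHR letters begin at -18 and stand between CCAAT matches at -53 and -8. The Kif23 window holds its CHR letters at 3, close behind a CCAAT match at -7 on the other strand. The Ube2c window has 6 CCAAT matches and 1 CHR match, so that its letters are of the mitosis kind although its RNA did not pass the test. The Mcm6 window has 5 E2F matches, 4 of them in overlapping pairs that read on opposite strands, and the Rrm2 window has 1 E2F match, at -235. The number of matches thus does not follow the size of the difference for these genes, which were chosen for display with their values known.

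Libraries were compared as log2(FPKM + 1) with limma's moderated test, adjusted by Benjamini and Hochberg over all 10405 genes, and "rose", "fell" and "passed" refer to an adjusted p below 0.05. The error after a log2 fold change is its standard error (n = 3 libraries in each group), and a fold is the ratio of mean FPKM. FPKM (fragments per kilobase of transcript, scaled to sequencing depth) summed to between 1217971 and 1249691 in sulfatide libraries and to between 1126779 and 1168475 in vehicle libraries, and relative depth, set to 1 in vehicle replicate 2, was 1.07, 1.2 and 0.850 in sulfatide libraries and 1.06 and 1.01 in vehicle replicates 3 and 4. Over all tested genes 865 rose (8.31%) and 1078 fell (10.4%), or 467 and 1527 after rescaling to TPM. Macrophage markers were high (8 genes, summing to 27023 to 38323 FPKM in sulfatide and 29651 to 34298 FPKM in vehicle libraries), with Lyz2 giving nearly all of the sum. Of these 8, Mrc1, the mannose receptor, rose 2.66-fold (adjusted p = 0.00143) and the other 7 did not pass. Of 12 markers of T, NKT and NK cells 6 were listed at 0 in every library and the rest stayed at or below 0.66 FPKM, with sums of 0.70 to 0.94 FPKM in sulfatide and 0.71 to 1.01 FPKM in vehicle libraries. The 8 lung epithelium markers stayed at or below 0.23 FPKM, the 6 B cell markers at or below 1.35 FPKM and the 7 red cell markers at or below 1.29 FPKM. Neutrophil markers summed to 406 to 567 FPKM in sulfatide and 134 to 186 FPKM in vehicle libraries, mostly from S100a8. Of these 12 genes 5 were tested. S100a8 (3.99-fold, adjusted p = 3.33e-05) and Mmp8 (1.81-fold, adjusted p = 0.0439, but 0.0776 after rescaling to TPM and above 0.05 in 4 of 6 leave-one-out fits) rose and none fell. S100a9, Ngp and Camp had negative log2 fold changes (-0.15, -0.24 and -0.45) and did not pass (adjusted p = 0.804, 0.586 and 0.0519). Camp was lower in every sulfatide library than in any vehicle library. Ly6g and Cxcr2 stayed at or below 0.18 FPKM, and whether neutrophils had a part in the results below was not tested. The 8 fibroblast and endothelial markers summed to 32.6 to 43.7 FPKM in sulfatide and 33.8 to 48.7 FPKM in vehicle libraries.

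Mitosis genes had higher group means in sulfatide libraries, with single libraries of the groups overlapping for 14 of the 25. Of the 25 genes, 11 rose and none fell, against 8.31% and 10.4% of all tested genes, and at an unadjusted p below 0.05 the counts were 17 and 0. All 25 had a positive log2 fold change, between 0.35 for Ube2c and 1.25 for Birc5, with a median of 0.79, against 0.04 over all tested genes. Groups did not overlap, with sulfatide higher, for 11 of the 25, against 18.6% of all tested genes. Over all 49 tested genes of the cycle 22 had groups that did not overlap in either direction, 19 with sulfatide higher and 3 lower, against 37% of all tested genes, 18.6% higher and 18.3% lower. The count of mitosis genes that rose depended on single libraries. Omitting vehicle replicate 2 left 0 of them, omitting vehicle replicate 4 or sulfatide replicate 1 left 1, and omitting sulfatide replicate 2 left 3. The count grew to 17 when sulfatide replicate 3 was omitted and to 22 when vehicle replicate 3 was. Over all tested genes the number that rose, 865 with all libraries, changed too. It was 268, 432, 354 and 805 without vehicle replicate 2, vehicle replicate 4, sulfatide replicate 1 and sulfatide replicate 2. It was 450 without sulfatide replicate 3 and 1421 without vehicle replicate 3. Testing every gene above 0 FPKM in any library (15223 genes, of which 522 rose) left 1, while all 25 log2 fold changes stayed positive in each of these settings.

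**Figure D1:**
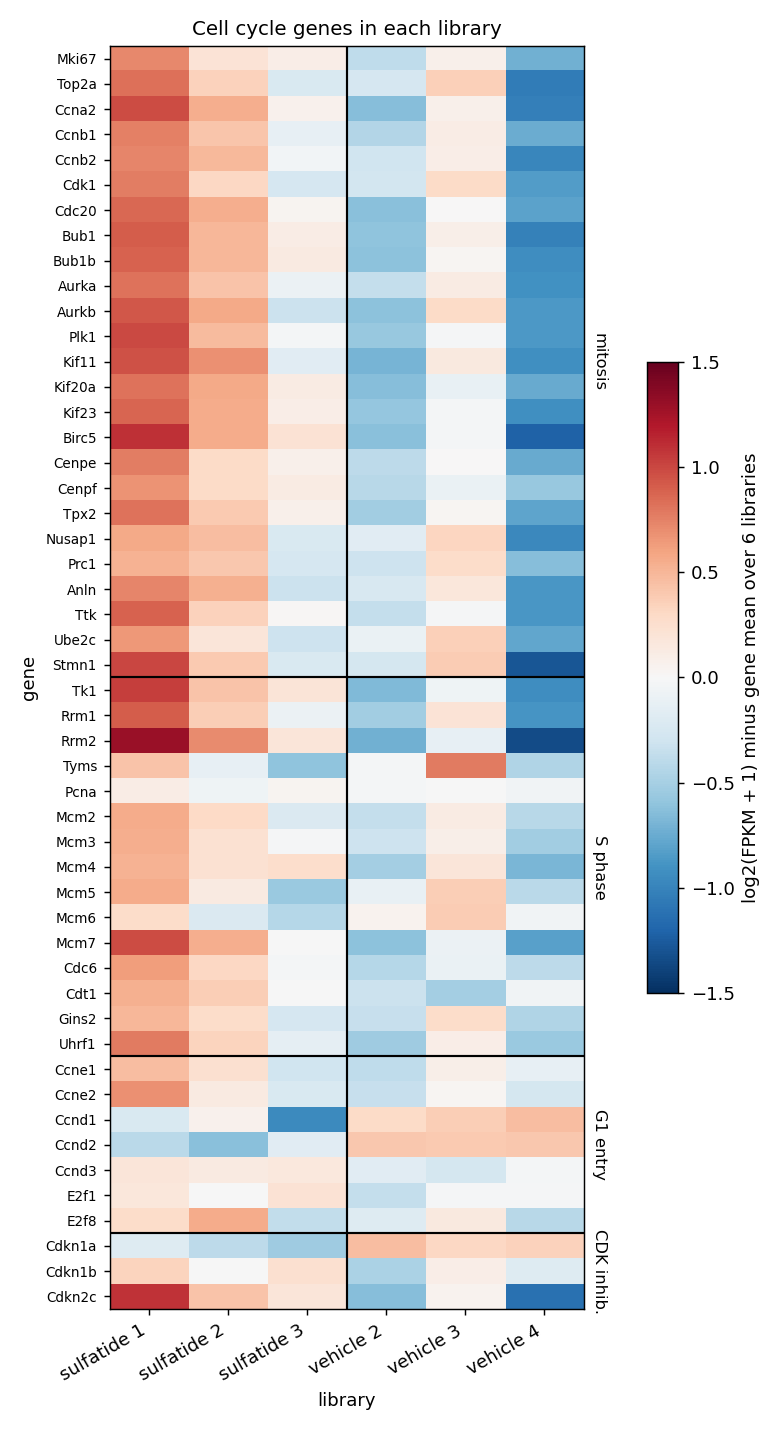
Each of the 50 genes in each of the 6 libraries, as log2(FPKM + 1) minus the mean of that gene over the libraries (colour, red above and blue below the mean), with sulfatide libraries left of the line and genes grouped by role. All 25 mitosis genes are highest in sulfatide replicate 1 and lowest in vehicle replicate 4, and Ccnd1, Ccnd2 and Cdkn1a run the other way between the groups.

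Birc5 had the largest log2 fold change of the mitosis genes. The gene, which encodes survivin, a subunit of the chromosomal passenger complex, was at 386, 266 and 208 FPKM in sulfatide libraries, against 116, 176 and 76.8 FPKM in vehicle libraries (2.33-fold higher, log2 fold change 1.25 ± 0.29, adjusted p = 0.0201). Every sulfatide library lay above every vehicle library, the closest being sulfatide replicate 3 and vehicle replicate 3. Bub1b, which encodes the checkpoint kinase BubR1, was at 27.2, 20.5 and 15.8 FPKM in sulfatide libraries and 8.96, 14.6 and 6.97 FPKM in vehicle libraries (2.08-fold, adjusted p = 0.0257). Its partner kinase Bub1 was at 32.6, 24.2 and 18.2 FPKM in sulfatide libraries and 10.8, 17.99 and 7.86 FPKM in vehicle libraries (2.05-fold, adjusted p = 0.0359), where sulfatide replicate 3 and vehicle replicate 3 were nearly level. Cdc20, the activator of the anaphase-promoting complex that the checkpoint restrains, was at 76.7, 61.4 and 42.96 FPKM in sulfatide libraries and 26.7, 41.9 and 23.5 FPKM in vehicle libraries (1.97-fold, adjusted p = 0.0259). The kinetochore motor Cenpe was at 8.42, 5.72 and 4.83 FPKM in sulfatide libraries and 3.21, 4.55 and 2.27 FPKM in vehicle libraries (1.89-fold, adjusted p = 0.0472). The kinetochore protein Cenpf was low, at 4.11, 2.9 and 2.49 FPKM in sulfatide libraries and 1.39, 2 and 1.16 FPKM in vehicle libraries (2.09-fold, adjusted p = 0.0257). For each of these genes the lowest sulfatide library was replicate 3 and the highest vehicle library was replicate 3, and the groups were separate.

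Kif20a had the smallest p of the mitosis genes. It encodes a kinesin of the central spindle and was at 37.7, 31.6 and 22.9 FPKM in sulfatide libraries, against 13.2, 19.3 and 12.1 FPKM in vehicle libraries (2.07-fold higher, log2 fold change 1.00 ± 0.21, adjusted p = 0.0111). The kinesin Kif23 was at 19.2, 15.2 and 10.8 FPKM in sulfatide libraries and 6.38, 9.78 and 4.82 FPKM in vehicle libraries (2.16-fold, adjusted p = 0.0218). Both Kif20a and Kif23 kept their groups apart. Tpx2, a spindle assembly factor that activates Aurora A, was at 68.6, 51.03 and 40.7 FPKM in sulfatide libraries and 26.5, 39.3 and 21.8 FPKM in vehicle libraries (1.83-fold, adjusted p = 0.0319). The kinase Plk1 rose (adjusted p = 0.0381) with a slight overlap, at 52.5, 36.7 and 25.6 FPKM in sulfatide libraries and 17.2, 25.8 and 13.9 FPKM in vehicle libraries. Ccna2, the cyclin of S phase and G2, also rose (adjusted p = 0.0351) with its lowest sulfatide library, 40.8 FPKM, just under vehicle replicate 3, at 41.2 FPKM. Leaving out vehicle replicate 2 ended each of the 11 calls, with adjusted p between 0.0555 for Kif20a and 0.141 for Cenpe. Kif20a passed in the other 5 leave-one-out fits, and Birc5 and Cenpf in 3 of 6. Rescaling to TPM ended the calls of Plk1 (adjusted p = 0.0519) and Cenpe (0.0654).

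The remaining 14 mitosis genes did not pass the test. Mki67, the proliferation antigen used to mark cycling cells, was at 41.7, 28.8 and 26.6 FPKM in sulfatide libraries and 18.8, 26.3 and 14.6 FPKM in vehicle libraries (log2 fold change 0.69 ± 0.22, adjusted p = 0.0574). Its groups were separate by a small margin between sulfatide replicate 3 and vehicle replicate 3. Topoisomerase Top2a was at 61.1, 43.7 and 28.9 FPKM in sulfatide libraries and 28.6, 43.9 and 16.02 FPKM in vehicle libraries (log2 fold change 0.63 ± 0.35, adjusted p = 0.236), with vehicle replicate 3 above sulfatide replicates 2 and 3. The mitotic kinase gene Cdk1 was at 145, 106 and 70.7 FPKM in sulfatide libraries and 69.6, 103 and 47.1 FPKM in vehicle libraries (log2 fold change 0.55 ± 0.30, adjusted p = 0.232), and its cyclin Ccnb1 was at 79.7, 62.8 and 42.9 FPKM in sulfatide libraries and 34.2, 50.6 and 27.4 FPKM in vehicle libraries (log2 fold change 0.71 ± 0.25, adjusted p = 0.0793). In both, vehicle replicate 3 exceeded sulfatide replicate 3. The other 10 (Ccnb2, Aurka, Aurkb, Kif11, Nusap1, Prc1, Anln, Ttk, Ube2c and Stmn1) had log2 fold changes of 0.35 to 0.98 and adjusted p of 0.0538 to 0.439. Ttk, the checkpoint kinase Mps1, was closest to the threshold, with groups that did not overlap (3.95 FPKM in the lowest sulfatide library and 3.83 FPKM in the highest vehicle library). Ccnb1, Ccnb2 and Stmn1 have named pseudogenes or copies in the annotation, so that the assignment of their fragments is uncertain.

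**Figure D2:**
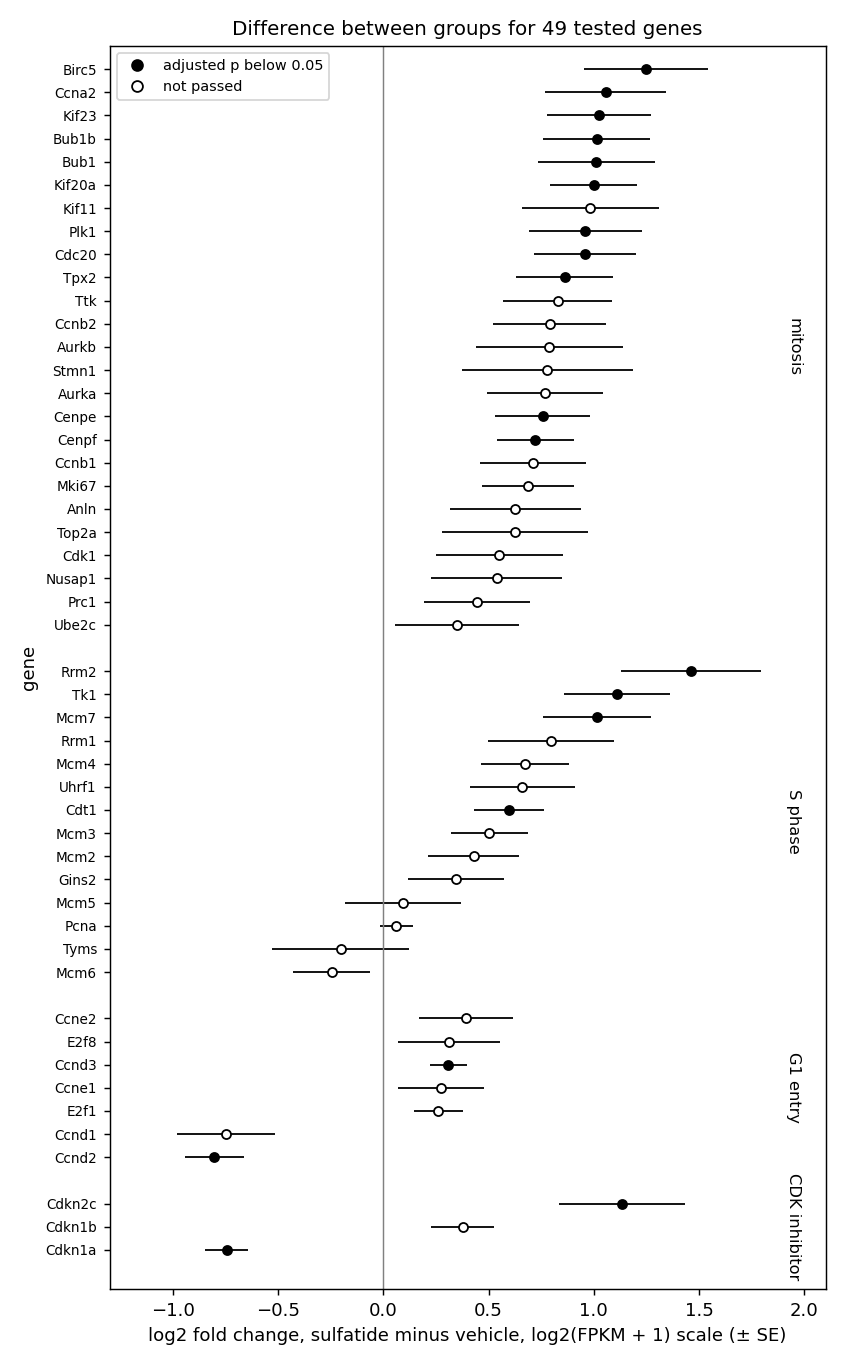
Log2 fold changes of the 49 tested genes, sulfatide over vehicle, on log2(FPKM + 1), with the standard error from limma as bars, grouped by role and sorted within each group; filled points passed an adjusted p below 0.05. Mitosis genes span 0.35 to 1.25, S phase genes span -0.24 to 1.46, and Ccnd2, Ccnd1 and Cdkn1a lie below 0.

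S phase genes spanned a wider range of log2 fold changes than mitosis genes, from -0.24 for Mcm6 to 1.46 for Rrm2. Of the 15 genes 14 were tested, 4 rose and none fell, against 8.31% and 10.4% of all tested genes, and at an unadjusted p below 0.05 the counts were 8 and 0. Their median log2 fold change was 0.55, and 12 of the 14 were positive, or 10 after rescaling to TPM. Groups did not overlap, with sulfatide higher, for 5 of the 14, against 18.6% of all tested genes. Omitting vehicle replicate 2 left 0 that rose, omitting vehicle replicate 4 left 1, and omitting sulfatide replicate 1 or 2 left 2, whereas omitting vehicle replicate 3 gave 7. In these fits, in the same order, 268, 432, 354, 805 and 1421 of all tested genes rose, against 865 with all libraries. Testing every gene above 0 FPKM in any library also left 0, with 9 at an unadjusted p below 0.05. The difference between the medians of the S phase and mitosis genes was not tested.

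Enzymes that supply nucleotides ranged from the largest rise to a difference near 0. Rrm2, the small subunit that limits ribonucleotide reductase in S phase, was at 22.1, 14.4 and 9.64 FPKM in sulfatide libraries, against 4.71, 7.6 and 2.7 FPKM in vehicle libraries (3.07-fold higher, log2 fold change 1.46 ± 0.33, adjusted p = 0.0172). The lowest sulfatide library stood above the highest vehicle library. The thymidine kinase Tk1, a salvage enzyme, was at 45.8, 29.7 and 25.1 FPKM in sulfatide libraries and 13.4, 20.7 and 10.96 FPKM in vehicle libraries (2.23-fold, adjusted p = 0.0172), again without overlap. Rrm1, the large subunit of the reductase, had a log2 fold change of 0.80 ± 0.30 and did not pass (adjusted p = 0.0949). Thymidylate synthase, Tyms, which makes thymidylate by the de novo route, was at 14.2, 9.35 and 6.42 FPKM in sulfatide libraries and 10.1, 18.3 and 7.28 FPKM in vehicle libraries (log2 fold change -0.20 ± 0.32, adjusted p = 0.698), so that its highest library was vehicle replicate 3 and its lowest sulfatide replicate 3. Tyms has a named pseudogene, which leaves the assignment of its fragments uncertain. Without vehicle replicate 2 neither Rrm2 (adjusted p = 0.0653) nor Tk1 (0.0753) passed, nor without vehicle replicate 4 (0.0509 and 0.0596). Neither passed when every gene above 0 FPKM in any library was tested (0.0559 and 0.0536).

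Of the genes that license and start replication, Mcm7 and Cdt1 rose. Mcm7, a helicase subunit, was at 21.6, 15.6 and 10.4 FPKM in sulfatide libraries, against 6.47, 9.77 and 5.48 FPKM in vehicle libraries (2.196-fold higher, log2 fold change 1.02 ± 0.26, adjusted p = 0.0263), and Cdt1, the loading factor, was at 16.6, 14.6 and 11.1 FPKM in sulfatide libraries and 8.72, 7.5 and 10.7 FPKM in vehicle libraries (1.57-fold, adjusted p = 0.0374). Both kept their groups apart, and in Cdt1 the lowest library was vehicle replicate 3, which was the highest vehicle library for most other S phase genes. The other helicase subunits did not pass, with log2 fold changes of 0.67 ± 0.21 for Mcm4, 0.50 ± 0.18 for Mcm3, 0.43 ± 0.22 for Mcm2, 0.09 ± 0.28 for Mcm5 (-0.01 after rescaling to TPM) and -0.24 ± 0.18 for Mcm6. Mcm2 was at 6.83, 5.57 and 3.59 FPKM in sulfatide libraries and 3.17, 4.82 and 2.99 FPKM in vehicle libraries. Mcm5 was at 27.2, 20.1 and 12.03 FPKM in sulfatide libraries and 16.7, 23.8 and 13.5 FPKM in vehicle libraries. Subunits of the same hexamer thus ranged from a rise to differences near 0, although whether they differ from each other was not tested. Cdc6, the partner of Cdt1, was below the level for testing, at 1.83, 1.26 and 0.79 FPKM in sulfatide libraries and 0.36, 0.71 and 0.39 FPKM in vehicle libraries. Gins2, a subunit of the active helicase, and Uhrf1, which recruits the maintenance methyltransferase to new DNA, did not pass (log2 fold changes 0.35 ± 0.23 and 0.66 ± 0.25). Without vehicle replicate 2, Mcm7 and Cdt1 had adjusted p of 0.102 and 0.123, and Cdt1 did not pass after rescaling to TPM either (0.076).

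Pcna, the sliding clamp of replication and repair, was at 475, 418 and 453 FPKM in sulfatide libraries, against 429, 436 and 422 FPKM in vehicle libraries (log2 fold change 0.06 ± 0.08, adjusted p = 0.619, or -0.05 after rescaling to TPM). It was the S phase gene with the highest level in each library, and it varied least, with a within-group SD of 0.07 on the log2 scale, against a median of 0.40 for the tested S phase genes. Its level thus did not follow the other S phase genes across libraries. Pcna has 2 named pseudogenes, so that part of its fragments may be assigned wrongly.

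The order of the libraries was shared across genes. All 25 mitosis genes were highest in sulfatide replicate 1 and lowest in vehicle replicate 4, against 31.3% and 24.3% of all tested genes, and in all 25 vehicle replicate 3 was the highest vehicle library, against 50.9% of all tested genes. Their mean log2(FPKM + 1) was 5.52, 5.13 and 4.64 in sulfatide libraries, against 4.26, 4.81 and 3.81 in vehicle libraries. The S phase genes followed the same order, with means of 4.71, 4.32 and 3.95 in sulfatide libraries, against 3.71, 4.19 and 3.52 in vehicle libraries. Vehicle replicate 3 lay above sulfatide replicate 3 in both means. It did so in 14 of the 25 mitosis genes, against 6052 of all 10405 tested genes, a similar share. Sulfatide replicates 1 and 2 were above every vehicle library for 25 and 23 of the 25 genes, and sulfatide replicate 3 for 11. Over all 10405 tested genes these counts were 4503, 3396 and 3337. The within-group SD of the mitosis genes had a median of 0.48 on the log2 scale, against 0.14 for all tested genes. Sulfatide replicate 3, the lowest sulfatide library in these means, also had the lowest relative depth (0.850), and the part of depth in this was not tested.

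**Figure D3:**
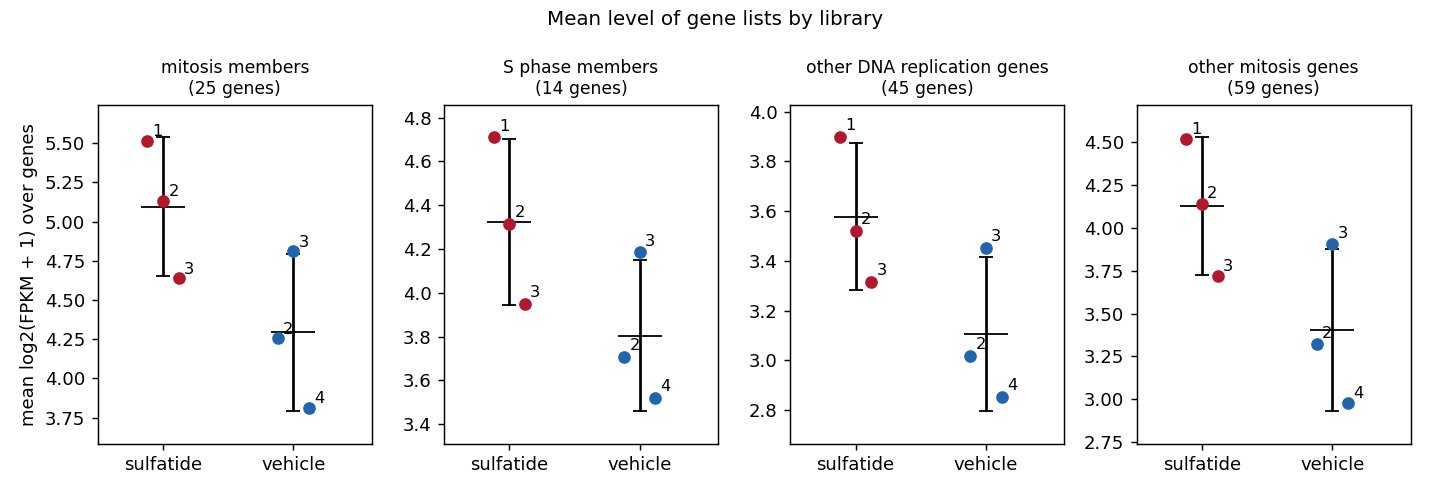
Mean log2(FPKM + 1) of 4 gene lists in each library, with the replicate number beside each point, and the mean ± SD of the 3 libraries of each group as bars. In each list sulfatide replicate 1 is highest and vehicle replicate 4 lowest, and vehicle replicate 3 stands above sulfatide replicate 3.

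Further genes of replication and mitosis differed in the same direction, with 1 exception among the calls. Of 50 other replication genes 45 were tested, 11 rose and none fell, against 8.31% and 10.4% of all tested genes, with a median log2 fold change of 0.45. The 4 with the smallest p were Chaf1b, a subunit of the chromatin assembly factor (1.92-fold higher, adjusted p = 0.0147), the polymerase epsilon subunit Pole2 (1.76-fold, adjusted p = 0.0189), geminin, Gmnn, which blocks Cdt1 (1.98-fold, adjusted p = 0.01996), and the dUTPase Dut (1.75-fold, adjusted p = 0.0258). Of 60 other mitosis genes 59 were tested, 19 rose and 1 fell, against the same 8.31% and 10.4%, with a median of 0.76. Among them Incenp, the scaffold of the passenger complex, rose 1.53-fold (adjusted p = 0.0157), as did the kinesins Kif22 (2.45-fold, adjusted p = 0.0208) and Kif2c (2.31-fold, adjusted p = 0.02096). The exception was securin, Pttg1, which holds separase in check until anaphase. It was at 66.3, 46.9 and 57.3 FPKM in sulfatide libraries, against 102, 93.6 and 90.6 FPKM in vehicle libraries (1.68-fold lower, log2 fold change -0.75 ± 0.13, adjusted p = 0.00371), without overlap and with calls in all 6 leave-one-out fits. Of the genes named here the calls of Chaf1b, Pole2, Gmnn, Dut, Incenp, Kif22 and Kif2c ended in 1 to 4 of those fits, with highest adjusted p of 0.0692 to 0.0884. Those of Gmnn, Dut, Kif22 and Kif2c also ended when every gene above 0 FPKM in any library was tested (0.0582 to 0.0686).

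Genes at the gate from G1 did not move in one direction. Of the 7 entry genes 1 rose and 1 fell, against 18.7% of all tested genes called in either direction. Among D-type cyclins Ccnd2 fell 2.104-fold, with 1.93, 1.5 and 2.44 FPKM in sulfatide libraries, against 4.14, 4.1 and 4.11 FPKM in vehicle libraries (log2 fold change -0.80 ± 0.14, adjusted p = 0.00458). The vehicle libraries were almost equal and all sulfatide libraries lay below them. Ccnd1 was at 1.77, 2.4 and 0.68 FPKM in sulfatide libraries and 2.98, 3.19 and 3.49 FPKM in vehicle libraries (log2 fold change -0.75 ± 0.23, adjusted p = 0.0534). It did not pass although its groups were separate, and it passed without sulfatide replicate 2 (adjusted p = 0.0225), after rescaling to TPM (0.0372), after quantile normalization (0.0453) and with array weights (0.00836). Ccnd3 was the D-type cyclin with by far the highest level per length, at 122, 118 and 121 FPKM in sulfatide libraries and 96.4, 89.7 and 106 FPKM in vehicle libraries. It rose 1.24-fold without overlap (log2 fold change 0.31 ± 0.09, adjusted p = 0.0378), but not after rescaling to TPM (adjusted p = 0.146) or in 5 of 6 leave-one-out fits (0.0575 to 0.129, all but the fit without vehicle replicate 4), and it has a named pseudogene. The ratio of Ccnd3 to Ccnd2 FPKM was 63.4, 78.9 and 49.5 in sulfatide libraries, against 23.3, 21.9 and 25.7 in vehicle libraries. Ccnd2 passed in each of the 6 leave-one-out fits (adjusted p 0.00488 to 0.0253).

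The E-type cyclins, E2f1 and E2f8 did not pass the test. Cyclin E genes, which act with Cdk2 at the start of S phase, were low. Ccne1 was at 7.14, 5.98 and 3.78 FPKM in sulfatide libraries and 3.54, 5.27 and 4.41 FPKM in vehicle libraries (adjusted p = 0.378), and Ccne2 was at 2.91, 1.67 and 1.07 FPKM in sulfatide libraries and 0.91, 1.47 and 1.02 FPKM in vehicle libraries (adjusted p = 0.2498), with overlapping groups in both. E2f1, an activator of the S phase program, was at 37.4, 32.97 and 38.6 FPKM in sulfatide libraries and 25.6, 32.6 and 32.5 FPKM in vehicle libraries (log2 fold change 0.26 ± 0.12, adjusted p = 0.156), groups that barely separated. E2f8, a repressor that the program itself induces, was at 1.74, 2.33 and 0.75 FPKM in sulfatide libraries and 0.98, 1.5 and 0.69 FPKM in vehicle libraries (adjusted p = 0.3997), with overlapping groups. E2f2, an activator from the further list of G1 genes, did rise, at 1.77, 1.92 and 1.46 FPKM in sulfatide libraries and 0.3, 0.89 and 0.87 FPKM in vehicle libraries (2.5-fold, log2 fold change 0.70 ± 0.17, adjusted p = 0.0236), without overlap. Its call ended without vehicle replicate 2 (adjusted p = 0.0759) or sulfatide replicate 1 (0.0669) or 2 (0.0607). E2f3, E2f4, E2f5 and E2f6 did not pass (adjusted p 0.132 to 0.948).

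Of the 3 CDK inhibitors 1 fell, 1 rose and 1 did not pass, while of all tested genes 10.4% fell and 8.31% rose. Cdkn1a, which encodes p21, an inhibitor that p53 induces (chromosome 17, 29090979 to 29100722, build GRCm38.p6), was at 284, 247 and 223 FPKM in sulfatide libraries, against 446, 402 and 412 FPKM in vehicle libraries (1.67-fold lower, log2 fold change -0.74 ± 0.10, adjusted p = 0.00125). The groups were wide apart, and the difference passed in each leave-one-out fit (adjusted p 0.000953 to 0.0107). Cdkn2c, which encodes p18, an inhibitor of Cdk4 and Cdk6 (chromosome 4, 109660876 to 109666756), rose 2.202-fold, with 64.4, 40.7 and 34.01 FPKM in sulfatide libraries, against 18.8, 31.1 and 13.3 FPKM in vehicle libraries (log2 fold change 1.13 ± 0.30, adjusted p = 0.0312). Its libraries followed the order of the mitosis genes, with sulfatide replicate 1 highest and vehicle replicate 4 lowest. Its call ended without vehicle replicate 2 (adjusted p = 0.112) or 4 (0.0943) or sulfatide replicate 1 (0.0844) or 2 (0.0573). The call also ended with every gene above 0 FPKM in any library tested (0.084). Cdkn1b, which encodes p27, was at 87.4, 69.2 and 81.95 FPKM in sulfatide libraries and 49.8, 74.2 and 60.7 FPKM in vehicle libraries (log2 fold change 0.38 ± 0.15, adjusted p = 0.107), and vehicle replicate 3 overlapped the sulfatide group.

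**Figure D4:**
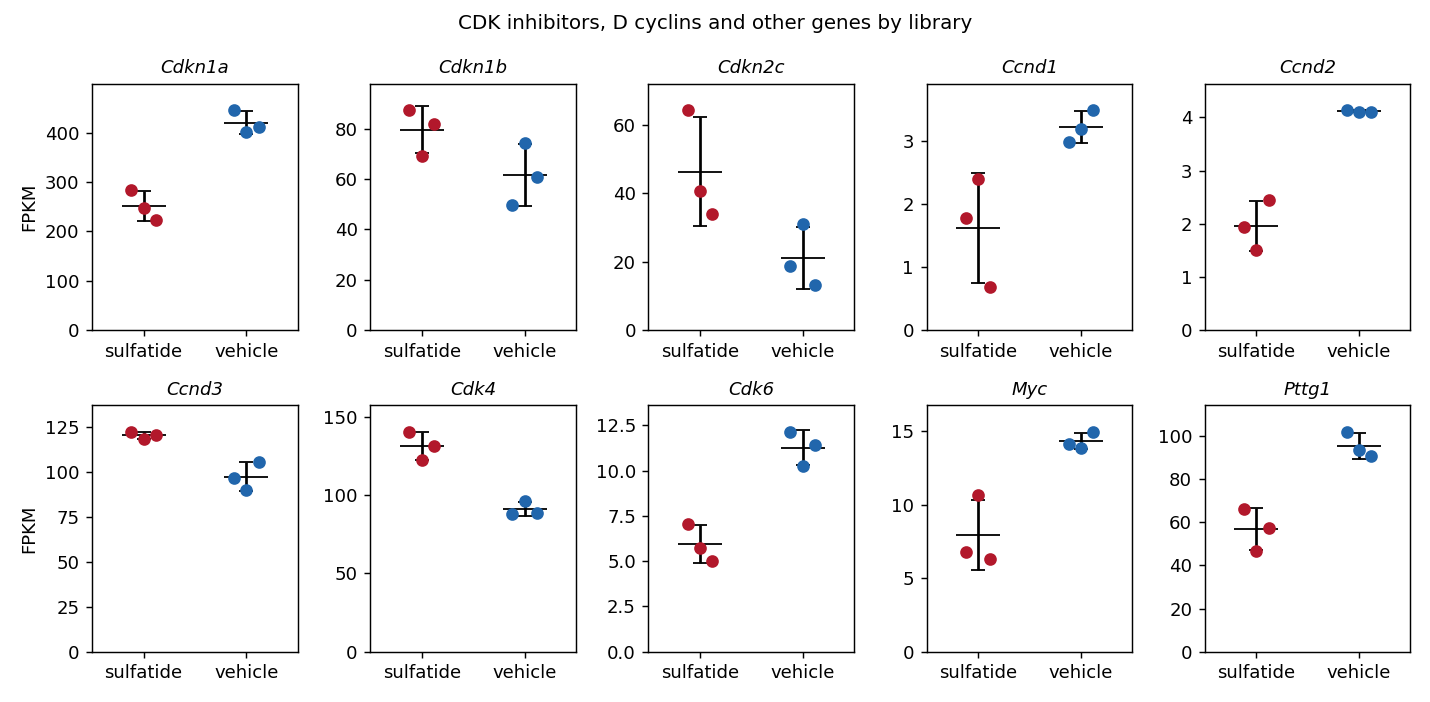
FPKM of 10 genes in each library (points) with the mean ± SD of the 3 libraries of a group (bars), each axis starting at 0. Cdkn1a, Ccnd1, Ccnd2, Cdk6, Myc and Pttg1 are lower in every sulfatide library than in any vehicle library, and Cdkn2c, Ccnd3 and Cdk4 are higher.

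The kinases that D-type cyclins bind moved in opposite directions. Of 30 other genes of G1 and the retinoblastoma pathway 27 were tested, 4 rose and 3 fell, against 8.31% and 10.4% of all tested genes, with a median log2 fold change of 0.14. Cdk4 rose 1.44-fold, with 140.4, 122 and 131 FPKM in sulfatide libraries, against 88.2, 96.4 and 88.5 FPKM in vehicle libraries (log2 fold change 0.52 ± 0.09, adjusted p = 0.00354). Cdk6 fell 1.899-fold, with 7.05, 5.74 and 5.01 FPKM in sulfatide libraries, against 12.1, 10.2 and 11.4 FPKM in vehicle libraries (log2 fold change -0.83 ± 0.13, adjusted p = 0.00309). For both genes the groups did not overlap. Myc, a growth factor-induced activator of proliferation, was at 6.79, 10.7 and 6.32 FPKM in sulfatide libraries and 14.2, 13.9 and 14.96 FPKM in vehicle libraries, 1.81-fold lower (adjusted p = 0.0117), and the inhibitor Cdkn2b was at 2.06, 4 and 2.6 FPKM in sulfatide libraries and 5.02, 7.19 and 5.9 FPKM in vehicle libraries, 2.09-fold lower (adjusted p = 0.0154). Cdk4, Cdk6 and Myc passed in each leave-one-out fit, and Cdkn2b in 5 of 6 (highest adjusted p = 0.0511). Besides Cdk4, the genes that rose were E2f2, the inhibitor Cdkn2d (1.64-fold, adjusted p = 0.0492) and the CDK phosphatase Cdkn3 (1.67-fold, adjusted p = 0.0392), all named after their values were seen. The calls of Cdkn2d and Cdkn3 ended after rescaling to TPM (0.0755 and 0.059), and both held in 2 of 6 leave-one-out fits, those without sulfatide replicate 3 or vehicle replicate 3. Cdk6, Cdkn2b, Myc, Ccnd1 and Ccnd2 were each lower in every sulfatide library than in any vehicle library. More genes of this list went the other way. Of its 27 tested genes 8 had separate groups with sulfatide higher and 3 lower, against 18.6% and 18.3% of all tested genes. Of the 7 entry genes 2 were separate with sulfatide higher and 2 lower.

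Other p53 targets fell beside Cdkn1a, while some rose. Of 20 such genes, Trp53 included, 19 were tested, 4 rose and 5 fell, against 8.31% and 10.4% of all tested genes, with a median log2 fold change of -0.11. The growth arrest gene Gadd45a fell 2.06-fold, with 75.5, 64.8 and 73.4 FPKM in sulfatide libraries, against 123, 171 and 147 FPKM in vehicle libraries (adjusted p = 0.000705), and the kinase gene Plk2 fell 2.92-fold (adjusted p = 0.000812). The death receptor Fas (1.49-fold lower, adjusted p = 0.00305) and Mdm2, the ubiquitin ligase of p53 (1.45-fold lower, adjusted p = 0.00353), fell too, and these 4 calls held in each leave-one-out fit. The fifth that fell was Btg2, an antiproliferative gene (1.34-fold lower, adjusted p = 0.01003). Those that rose were Ccng1 (1.26-fold, adjusted p = 0.0279), Phlda3 (2.17-fold, 0.0155), Zmat3 (1.40-fold, 0.0329) and Trp53inp1 (2.56-fold, 0.0159). Like Btg2 they were named after their values were seen. Whether these calls and that of Btg2 held in the leave-one-out fits or after rescaling to TPM was not examined. Groups did not overlap for 6 of the 19 genes with sulfatide higher and for 5 with sulfatide lower, against 18.6% and 18.3% of all tested genes. The list thus did not move one way.

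Levels were also set against the mitosis genes as a whole, by subtracting from each gene's log2(FPKM + 1) the mean of the mitosis genes of the same library, leaving out the gene itself. This scale was chosen after the values were seen and is a description without a test. On it 15 of 25 mitosis genes and 7 of 14 tested S phase genes had overlapping groups. The scale was computed only for the tested genes of the cycle. The share of all tested genes with overlapping groups on it is thus not known, and these counts have no background to be read against. Rrm2 kept apart on the high side, at -1.13 ± 0.13 in sulfatide and -1.79 ± 0.12 in vehicle libraries (SD, n = 3 each), as did Birc5, at 3.15 ± 0.09 in sulfatide and 2.69 ± 0.10 in vehicle libraries (SD, n = 3 each). The 4 S phase genes that rose were not all high on this scale, since Mcm7 and Cdt1 overlapped. Tyms kept apart on the low side, at -1.70 ± 0.09 in sulfatide and -0.70 ± 0.14 in vehicle libraries (SD, n = 3 each), and so did Mcm6, at -0.75 ± 0.14 in sulfatide and 0.30 ± 0.28 in vehicle libraries (SD, n = 3 each), and Mcm5, at -0.79 ± 0.13 in sulfatide and -0.08 ± 0.11 in vehicle libraries (SD, n = 3 each). Ube2c, the ubiquitin-conjugating enzyme of the anaphase-promoting complex, was likewise low, at 2.64 ± 0.05 in sulfatide and 3.11 ± 0.12 in vehicle libraries (SD, n = 3 each).

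Ratios of FPKM within a library showed the same contrast. Tyms over Rrm2 was 0.64, 0.652 and 0.666 in sulfatide libraries, against 2.14, 2.41 and 2.696 in vehicle libraries. Both enzymes act in nucleotide supply, and the groups did not overlap in this ratio although either gene varied more than 2-fold among sulfatide libraries. Mcm6 over Mcm7, subunits of one helicase ring, was 1.19, 1.16 and 1.49 in sulfatide libraries, against 3.39, 2.84 and 3.701 in vehicle libraries. Ube2c over Birc5 was 0.711, 0.743 and 0.677 in sulfatide libraries, against 1.404, 1.27 and 1.32 in vehicle libraries. These pairs were picked from the values just given, so their separation is no independent evidence.

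**Figure D5:**
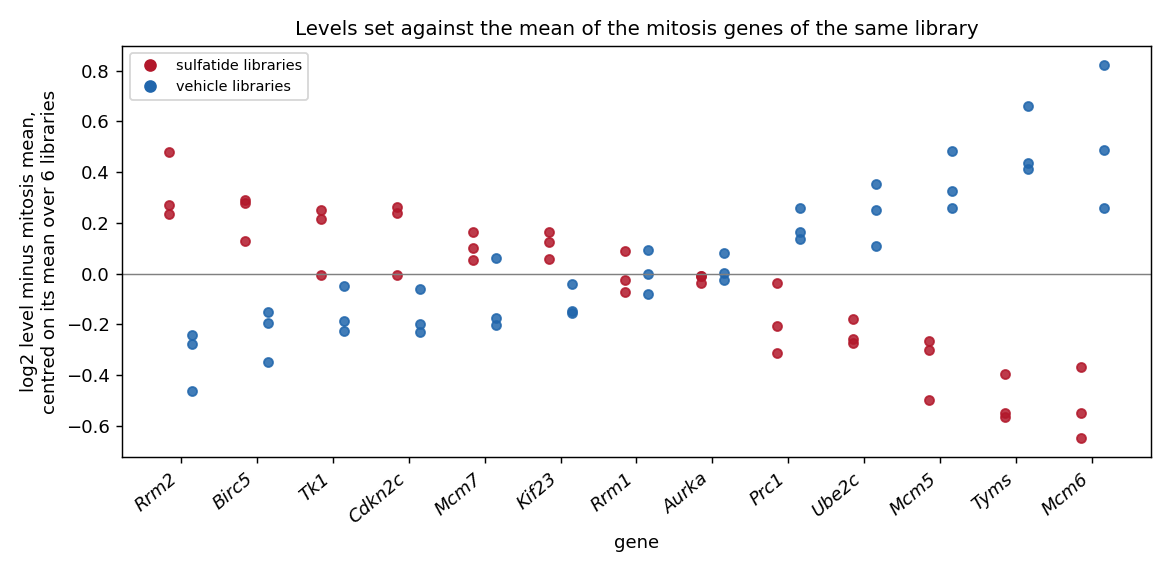
Log2(FPKM + 1) of 13 genes minus the mean of the mitosis genes of the same library, centred on the mean of that difference over the 6 libraries (points, 1 per library). Rrm2 and Birc5 lie higher and Prc1, Ube2c, Mcm5, Tyms and Mcm6 lower in each sulfatide library than in any vehicle library, while Aurka and Rrm1 overlap.

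The annotation limits a few of these values. Exons of 16 of the 50 genes lie over exons of a gene on the other strand, among them Mcm7, Tk1, Cdc20, Kif20a, Ccnd2, Ccnd3 and Cdkn1a, and whether counting used the strand is not stated, so that fragments of such partners may be counted together. For 6 genes (Ccnb1, Ccnb2, Stmn1, Tyms, Pcna and Ccnd3) the annotation names a pseudogene or related copy.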

How the data were processed

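The authors deposited 1 table of FPKM values per gene, rounded to 2 decimals, with no counts. Extraction with TRIzol, selection of poly(A) RNA and strand-specific library construction are given per the labels' protocols. Per the submitters' processing notes, the genome was mm10. Aligner, counter and gene models: not given in the sources used here. The table held 3 further value columns that match no sample and were not used. Absolute depth is unknown, and relative depth was read from the most frequent ratio of low FPKM (0.1 to 1.5) between libraries, which is approximate.

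Genes at 1 FPKM or more in at least 3 libraries were tested as log2(FPKM + 1), with no other scaling, in limma 3.58.1 (R 4.3.3, lmFit and eBayes with a trend), 2-sided, with Benjamini-Hochberg adjustment over all of them. Fold changes on this scale understate those of low genes, and folds are ratios of mean FPKM. With 3 libraries in each group, an exact permutation test (2-sided) reaches p = 0.1 at the lowest. The test was tried on simulated data. The genes, lists and groups by role were chosen with earlier results of these data known. All 50 genes were to be named, with values per library for those called without overlap and for 20 set genes, and the 4 smallest p of each further list. Alternatives were other pseudocounts, filters and scalings, array weights, the replicate number as a block, and leaving out each library.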

Additional observations from a re-analysis of the deposited data

How the results depend on the processing

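Pseudocount, filter, scaling, array weights, the block and the libraries used were varied in turn. The median log2 fold change of mitosis genes was positive in each (0.366 to 1.03), as was that of S phase genes (0.261 to 0.676). Of the 50 genes 17 rose, with 2 under no filter on low values and 0 to 31 when 1 library was left out. Mitosis genes that rose (11) numbered 1 with no filter and 0 to 22 by left-out library, and S phase genes that rose (4) numbered 0 with no filter and 0 to 7. The 2 that fell became 1 at the 5 FPKM filter, where Ccnd2 was not tested. Over all genes the 865 that rose became 522 with no filter, 467 after rescaling to TPM, 2054 with array weights and 268 to 1421 by left-out library. The 1078 that fell became 1723 with array weights and 642 to 1135 by left-out library. Of the calls, 44.5% were of genes that rose, and 23.4% after rescaling to TPM, which moved the median log2 fold change of all genes from 0.0366 to -0.0611. The cause of these shifts was not tested.

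Only replicate numbers 2 and 3 occur in both groups, and the deviations of same-numbered libraries from their group means correlated at 0.156 and -0.303 over genes, so the numbers were not taken to pair the libraries. With the replicate block 297 genes rose and 635 fell, and of the 50 genes 0 rose by limma (0 mitosis and 0 S phase genes, or 13, 5 and 4 at an unadjusted p below 0.05) and 2 fell, Ccnd2 and Cdkn1a.

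Directions turned for genes that did not pass. Mcm5 was at -0.012 after rescaling to TPM, -0.339 with the replicate block, -0.097 with array weights and -0.162 to 0.394 by left-out library. Tyms was at -0.476 to 0.136 by left-out library, Pcna at -0.050 after rescaling to TPM, and Ube2c at -0.193 with the replicate block.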
